A study of Mus musculus with 21 samples.

Results

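The genes described here encode the enzymes that build, transfer and remodel the asparagine-linked (N-linked) sugar chains of secreted and membrane proteins. The 41 genes were taken as a list by symbol, with earlier results of these data known, and all 41 symbols were present in the count and TPM tables and among the 16513 genes tested (41 of 16513). By role, 17 make the lipid-linked donor sugar, 9 form the oligosaccharyltransferase, 5 trim the glycan or check folding in the endoplasmic reticulum (ER), and 10 trim or branch it in the Golgi. Read counts and TPM (transcripts per 1000000, a level corrected for transcript length) came from RNA-Seq of hand-sorted neurons of the hypothalamic arcuate nucleus, 1 library for each of 21 male mice of the C57BL/6J background. AGRP neurons came from the NPY-hrGFP line, in which the fluorescent protein marks Npy-expressing cells, and POMC neurons from the line labelled Pomc-GFP (Pomc topazFP in the methods of the study), so that cell type and mouse line cannot be told apart. Of the mice, 5 per line had food ad libitum (AGRP fed and POMC fed), and 6 NPY-hrGFP and 5 Pomc-GFP mice had water only for 24 h (food-deprived, FD). All mice were alone in a fresh cage for that time, and were 46 to 56 days old.

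N-glycosylation starts on the ER membrane, where a sugar tree is assembled sugar by sugar on the lipid dolichol. The oligosaccharyltransferase moves the finished tree onto asparagines of a protein entering the ER, and glucosidases and the sensor Uggt1 then couple the trimming of the tree to the folding of the protein. The Golgi enzymes cut the mannoses back and add branches and fucose. Neuropeptide precursors, receptors and ion channels pass along the same route, and AGRP and POMC neurons are peptide-secreting cells with opposite roles in feeding.

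The libraries held 44 to 214 sorted cells, and their reads in genes numbered 9822298 to 37663979. Agrp and Npy were at least 470.3 CPM in every AGRP library and at most 26.2 CPM in every POMC library, and Pomc was at least 2184 CPM in every POMC library and at most 24.0 CPM in every AGRP library. The 16 markers of astrocytes, oligodendrocytes, microglia and endothelial cells summed to 36.1 to 50.2 TPM in AGRP fed, 25.9 to 47.5 TPM in AGRP FD, 17.7 to 35.7 TPM in POMC fed and 24.8 to 52.7 TPM in POMC FD libraries, and 4, 2, 4 and 4 of them were at 0 throughout these groups. C1qa was at 0 in every library. Of the 9 markers tested, 1 passed between AGRP FD and fed mice, the astrocyte gene Aldh1l1 (q = 0.0284), at 0 to 0.045 TPM in AGRP fed and 0.217 to 5.15 TPM in AGRP FD libraries. The 4 endothelial markers summed to a median of 0.491 TPM in AGRP fed and 2.51 TPM in AGRP FD libraries, and Ly6c1 among them was at 0 in each AGRP fed and above 0 in 3 of 6 AGRP FD libraries (up to 8.86 TPM). Scaling factors differed between AGRP fed (1.04 to 1.11) and AGRP FD libraries (0.857 to 1.03). The part of these differences in the results was not tested. RNA was read from pools of cells, so that fewer expressing cells and less RNA per cell cannot be told apart.

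Food deprivation was followed by higher levels of 6 of the 9 listed oligosaccharyltransferase genes in AGRP neurons. In edgeR's quasi-likelihood fit over all libraries and genes (q is the Benjamini-Hochberg adjusted p over the 16513 genes, with q under 0.05 called), 8 of the 41 genes were higher and 1 was lower in AGRP FD than in AGRP fed neurons. Of all genes tested, 5.87% were called higher and 4.43% lower. The 8 were 6 of the 9 oligosaccharyltransferase genes (Stt3b, Rpn1, Ostc, Ddost, Rpn2 and Dad1), the glucosidase II subunit Prkcsh and the mannosyltransferase Alg2. The lower gene was Man2a1, a Golgi mannosidase. The stricter criteria of the study for differentially expressed genes (DEG), which add a group mean above 20 CPM and a log2 fold change beyond 1 in either direction, were met by Stt3b, Rpn1, Ostc, Ddost and Prkcsh in the upward and Man2a1 in the downward direction, 6 of 41 genes in all, beside 2.53% and 1.94% of all genes. All fitted values of the 9 oligosaccharyltransferase genes were above 0, with a median of 0.87 (log2), against 0.25 for the 41 genes and -0.02 for all genes tested.

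**Figure D1:**
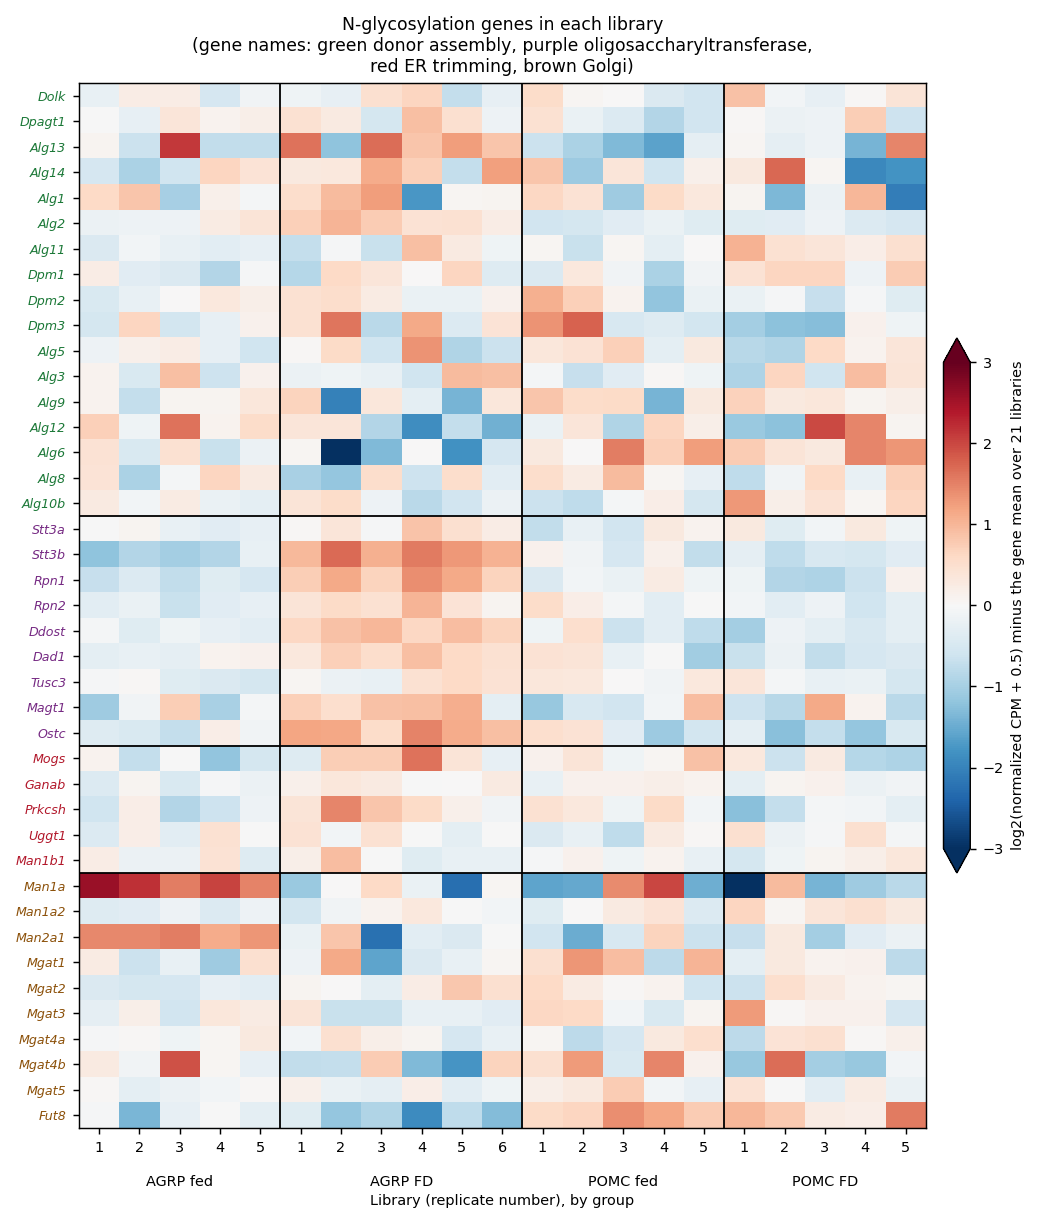
Level of each of the 41 genes (rows, by role) in each of the 21 libraries (columns, by group), as log2(normalized CPM + 0.5) minus the gene's mean over the libraries. The AGRP FD columns are red over Stt3b, Rpn1, Rpn2, Ddost, Dad1 and Ostc, and the AGRP fed columns are red over Man1a and Man2a1.

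Stt3b is the catalytic subunit of the oligosaccharyltransferase that acts on sites the translocon-bound enzyme has skipped (chr9:115242607-115310421, minus strand, genome build mm10). Its normalized CPM (CPM, reads per 1000000 counted, scaled by edgeR's TMM factors) was 41.7, 52.6, 47.9, 52.4 and 83.3 in the AGRP fed libraries and ran from 190.5 to 315 with a median of 224 in the AGRP FD libraries. The groups did not overlap, and the difference was the largest rise among the 41 genes (+4.32-fold, q = 4.83e-08; log2 fold change 2.11 ± 0.21 SE). POMC fed libraries held 107, 91.1, 68.7, 109 and 58.1 CPM and POMC FD libraries 81.3, 57.5, 69.6, 67.9 and 77.1 CPM, with overlapping ranges. Stt3a, the catalytic subunit of the translocon-bound enzyme (chr9:36729344-36767679, minus strand), was at 164, 175, 141, 131 and 139.7 CPM in AGRP fed and ran from 161 to 301 with a median of 202 CPM in AGRP FD libraries. These ranges overlapped and the difference did not pass (+1.41-fold, q = 0.102), although it did with the spike-in set as a block (q = 0.0468). Its POMC fed values were 99.4, 142, 111, 203 and 178 CPM and its POMC FD values 202, 129, 156, 201 and 150.4 CPM (+1.14-fold, q = 0.77).

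On the length-corrected scale, Stt3b stood at 46.3 ± 13.0 TPM (SD, n = 5) in AGRP fed and 167 ± 22.1 TPM (n = 6) in AGRP FD neurons, and Stt3a at 89.5 ± 9.87 and 105 ± 16.8 TPM. The order of the catalytic subunits thus turned with food deprivation in AGRP neurons. The log2 ratio of Stt3b to Stt3a was 0.68 ± 0.23 in the FD libraries and -0.98 ± 0.47 in the fed libraries, negative in each fed and positive in each FD library (exact permutation test, two-sided, p = 0.00433, 0.0173 after Benjamini-Hochberg adjustment over the 8 ratio tests). In POMC neurons it was -0.75 ± 0.22 in the FD libraries and -0.26 ± 0.61 in the fed libraries, with overlap (exact permutation test, two-sided, p = 0.135, 0.254 after Benjamini-Hochberg adjustment over the 8 ratio tests). The AGRP ratio draws on the same libraries as the Stt3b test above and is no separate support for the rise of Stt3b. The difference between the cell types in this ratio change was not tested.

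Rpn1 and Rpn2 are the ribophorins, shared subunits of both enzymes. Rpn1 (chr6:88084473-88105304, plus strand) was at 113, 136, 109, 141 and 127 CPM in the AGRP fed libraries and ran from 288 to 477 with a median of 351 CPM in AGRP FD (+2.87-fold, q = 2.94e-06; log2 fold change 1.52 ± 0.19 SE). Each FD library lay above each fed library. In POMC neurons Rpn1 was at 134, 171, 158, 215 and 165 CPM (fed) and 164, 98.8, 94.6, 115 and 197 CPM (FD), where the ranges overlapped. Rpn2 (chr2:157279059-157326319, plus strand) was at 148, 159.9, 116, 145 and 155 CPM in AGRP fed and ran from 197 to 373 with a median of 249 CPM in AGRP FD libraries (+1.82-fold, q = 8.79e-04; log2 fold change 0.87 ± 0.17 SE), again with no overlap. The POMC values of Rpn2 were 269, 213, 176, 148 and 185 CPM in fed and 174, 149, 167, 122 and 151 CPM in FD mice. Exons of Rpn2 overlap Mroh8 and those of Rpn1 overlap the microRNA gene Mir6376, and counting did not use strand. Mroh8 had at most 69 reads in a library, beside at least 1238 for Rpn2, and Mir6376 had 0.

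Ddost and Dad1, the other shared subunits described here, rose as well. Ddost (chr4:138304730-138312628, plus strand) was at 84.9, 69.5, 81.3, 74.6 and 71.7 CPM in AGRP fed libraries and ran from 137 to 178 with a median of 154 CPM in AGRP FD (+2.03-fold, q = 0.00102; log2 fold change 1.02 ± 0.20 SE). No FD value was as low as a fed value. The POMC fed libraries held 81.7, 126, 56.8, 71.8 and 52.7 CPM of it and the POMC FD libraries 43.6, 79.8, 72.7, 63.6 and 72.9 CPM. Dad1, a small membrane subunit (chr14:54235479-54254104, minus strand), was at 76.8, 81.2, 78.4, 102 and 103 CPM in AGRP fed and ran from 119 to 178 with a median of 141 CPM in AGRP FD (+1.63-fold, q = 0.0245; log2 fold change 0.71 ± 0.21 SE). These groups did not overlap either, but the call was lost without AGRP FD replicate 4 (q = 0.0598) or AGRP fed replicate 1 (q = 0.0684), 2 (q = 0.0603) or 3 (q = 0.0672). Its POMC fed values were 128, 125, 81.7, 93.9 and 45.5 CPM and its POMC FD values 59.6, 84.4, 57.0, 66.6 and 70.6 CPM.

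Ostc joins the Stt3a enzyme to the translocon. It (chr3:130695921-130709444, minus strand) was at 44.4, 42.2, 35.6, 67.1 and 53.8 CPM in AGRP fed and ran from 85.1 to 165 with a median of 129 CPM in AGRP FD libraries (+2.57-fold, q = 8.96e-04; log2 fold change 1.36 ± 0.27 SE). The FD libraries were all above the fed ones. In POMC neurons it was at 83.5, 79.0, 45.8, 27.3 and 39.6 CPM (fed) and 47.8, 24.2, 35.7, 25.9 and 42.1 CPM (FD). The 6 called among the 9 oligosaccharyltransferase genes and no other of the 41 had all AGRP FD libraries above all fed ones, where 4.08% of all genes tested did. The summed level of the 9 genes was 908.2 to 1065 TPM in AGRP fed and 1527 to 1898 TPM in AGRP FD libraries, and 994.1 to 1179 TPM in POMC fed and 867.5 to 1074 TPM in POMC FD libraries. This sum includes the 6 called genes and is no separate support for them. TPM carries no TMM scaling, and the differences in the sum were not tested.

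**Figure D2:**
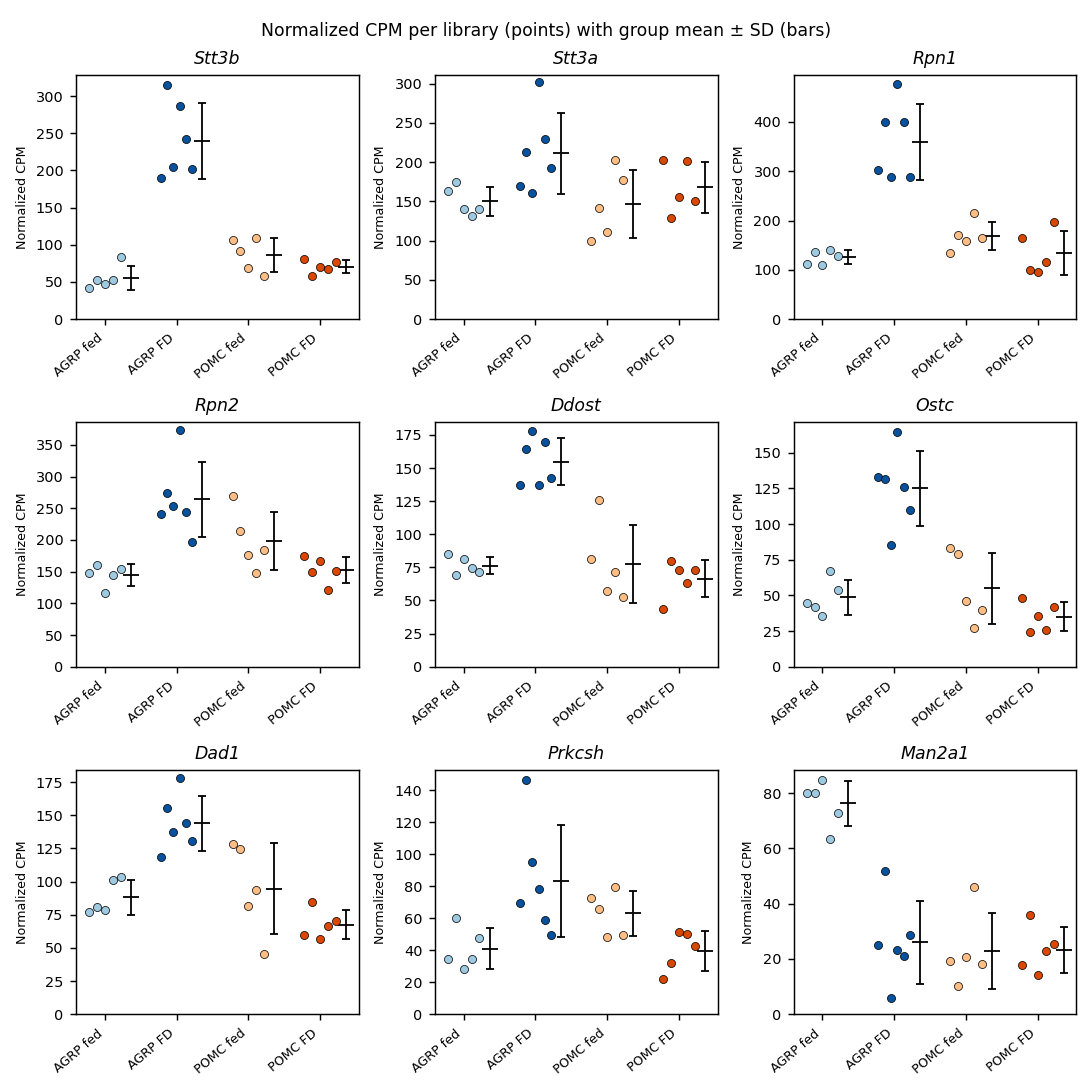
Normalized CPM of 9 genes in each library (points, 5 or 6 per group) with the group mean ± SD (bars beside them) on axes that start at 0. For Stt3b, Rpn1, Rpn2, Ddost, Ostc and Dad1 the AGRP FD points lie above all AGRP fed points, and for Man2a1 below them.

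Tusc3 and Magt1 are alternative oxidoreductase subunits of the Stt3b enzyme, and neither passed the test in AGRP neurons. Tusc3 was at 225, 209, 173, 167 and 151 TPM in AGRP fed libraries and ran from 153 to 285 with a median of 219.8 TPM in AGRP FD (+1.39-fold, q = 0.121 in the CPM fit). Magt1 was at 7.31, 12.9, 25.8, 7.62 and 14.3 TPM in AGRP fed and ran from 11.0 to 27.3 with a median of 22.2 TPM in AGRP FD (+1.80-fold, q = 0.237). Both overlapped between the groups, and Tusc3 was the higher of the pair in every library. In POMC neurons Tusc3 was at 214, 221, 209.9, 190.2 and 264 TPM (fed) and 266, 204, 181, 184 and 146 TPM (FD). Magt1 there was at 5.04, 8.62, 9.39, 13.2 and 27.6 TPM (fed) and 9.003, 7.89, 31.9, 15.6 and 7.91 TPM (FD). The log2 ratio of Tusc3 to Magt1 did not pass a test in AGRP (exact permutation test, two-sided, p = 0.303, 0.346 after Benjamini-Hochberg adjustment over the 8 ratio tests) or POMC neurons (exact permutation test, p = 0.548).

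Promoter windows of 250 bases before the RefSeq start site (GRCm38.p6, the assembly of mm10) were found for 33 of the 41 genes, and not for Dpagt1, Alg2, Alg11, Tusc3, Ostc, Man1a2, Mgat3 and Mgat4b. They were searched on both strands for the ER stress response element (ERSE), written as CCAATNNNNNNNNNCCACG, a CCAAT box and a 3′ box set 9 bases apart. It was in 0.113% of the 32851 windows of all genes, in 1 of the 33 genes (Alg12), and in 7 of 13 matched genes of a list of ER folding enzymes. The Xbp1 core letters TGACGTG were in 1.65% of all windows and in Dpm2 and Mogs among the 33. ERSE-II, which is ATTGG and CCACG with 1 base between, was in 0.0304% of all windows and none of the 33. The windows of Stt3b, Rpn1 and Ddost, the matched genes with the largest rises among those called in AGRP neurons, are shown with any CCAAT box or 3′ box CCACG (either strand) in capitals, and that of Alg12 with the letters of its ERSE in capitals. Bases that lie in annotated exons are left out. Stt3b is minus strand at chr9:115310469-115310718, Rpn1 plus strand at chr6:88084223-88084472, Ddost plus strand at chr4:138304488-138304729 and Alg12 minus strand at chr15:88819319-88819568.
Stt3b: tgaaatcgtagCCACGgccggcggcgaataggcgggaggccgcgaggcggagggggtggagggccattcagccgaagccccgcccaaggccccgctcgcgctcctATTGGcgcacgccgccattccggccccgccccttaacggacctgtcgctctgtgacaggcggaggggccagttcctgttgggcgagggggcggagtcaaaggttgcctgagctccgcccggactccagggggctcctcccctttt
Rpn1: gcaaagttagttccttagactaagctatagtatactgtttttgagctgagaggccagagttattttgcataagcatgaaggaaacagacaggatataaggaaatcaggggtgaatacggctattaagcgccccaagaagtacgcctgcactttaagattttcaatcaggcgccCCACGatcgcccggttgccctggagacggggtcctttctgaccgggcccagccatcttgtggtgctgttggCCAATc
Ddost: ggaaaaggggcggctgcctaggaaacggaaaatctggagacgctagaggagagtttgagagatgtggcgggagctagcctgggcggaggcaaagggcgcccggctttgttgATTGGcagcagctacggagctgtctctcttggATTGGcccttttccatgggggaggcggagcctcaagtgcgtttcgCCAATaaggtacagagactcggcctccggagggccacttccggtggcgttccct
Alg12: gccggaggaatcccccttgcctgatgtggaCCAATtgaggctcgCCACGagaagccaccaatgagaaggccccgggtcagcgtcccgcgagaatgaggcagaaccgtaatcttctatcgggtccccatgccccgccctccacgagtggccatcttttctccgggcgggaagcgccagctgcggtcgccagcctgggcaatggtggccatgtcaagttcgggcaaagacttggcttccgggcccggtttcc
Stt3b and Rpn1 hold 1 CCAAT box and 1 copy of the 3′ box each, not in ERSE spacing, and Ddost holds 3 CCAAT boxes and no 3′ box. The 3′ box was in 28.3% of all windows and 33.3% of the 33 genes, and the CCAAT box in 33.8% and 51.5%. The ERSE of Alg12 starts 220 bases before its start site and 126 bases before that of Creld2, an ER gene read from the opposite strand. In the AGRP comparison neither gene of this shared window passed (Alg12 -2.39-fold, q = 0.219; Creld2 +2.28-fold, q = 0.0764). A match of letters does not show a bound site, and a missing match says only that the letters are not in the window.

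Of the ER genes that act after transfer, Prkcsh, the non-catalytic subunit of glucosidase II, rose (chr9:22003035-22014219, plus strand). It was at 34.5, 60.3, 28.6, 34.3 and 47.5 CPM in AGRP fed and ran from 49.2 to 147 with a median of 74.2 CPM in AGRP FD libraries (+2.02-fold, q = 0.0158; log2 fold change 1.02 ± 0.28 SE). The ranges overlapped, and the call was lost without AGRP FD replicate 2 (q = 0.0649) or AGRP fed replicate 3 (q = 0.0561), or with sorted cell number added as a covariate (q = 0.0630). In POMC neurons Prkcsh was at 72.5, 65.8, 48.2, 79.3 and 49.5 CPM (fed) and 21.8, 31.9, 51.1, 50.3 and 42.9 CPM (FD). The catalytic subunit Ganab did not pass (+1.28-fold, q = 0.15), nor did the glucosidase I gene Mogs (+2.12-fold, q = 0.139), the folding sensor Uggt1 (+1.06-fold, q = 0.861) or the ER mannosidase Man1b1 (+1.08-fold, q = 0.866). Uggt1 means were 126 ± 31.4 CPM in fed and 134 ± 28.0 CPM in FD AGRP neurons.

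Donor assembly, the largest group, had a single call. Alg2, which adds inner mannoses to the lipid-linked tree (chr4:47469833-47474333, minus strand), was at 689, 695, 691, 916 and 1014 CPM in AGRP fed libraries and ran from 903 to 1576 with a median of 1167 CPM in AGRP FD (+1.49-fold, q = 0.00629; log2 fold change 0.58 ± 0.14 SE), and the ranges overlapped. Its POMC fed values were 518, 540.0, 614, 679 and 606 CPM and its POMC FD values 601, 609, 698, 583 and 543 CPM. The other 16 genes did not pass, with 11 fitted values above 0 and 5 below. They were Dolk, which makes the lipid carrier dolichol phosphate, Dpagt1, which adds its first sugar, Alg13, Alg14, Alg1 and Alg11, which extend it on the cytosolic side, Dpm1, Dpm2 and Dpm3 of the mannose-donor synthase, Alg5 of the glucose donor, Alg3, Alg9 and Alg12, which add the outer mannoses, and Alg6, Alg8 and Alg10b, which add the glucoses. Their log2 fold changes lay between -1.26 (Alg12, q = 0.219) and 0.74 (Alg14, q = 0.562). Alg13 was among the scarcest of the 41 genes, and its deposited gene model spans 7386 bases where Gencode vM21 has 56647.

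In the Golgi group, Man2a1, the mannosidase that opens the way to complex glycans, fell in AGRP neurons (chr17:64600736-64755110, plus strand). It was at 80.0, 80.2, 84.6, 63.6 and 72.9 CPM in AGRP fed and ran from 5.77 to 51.8 with a median of 24.2 CPM in AGRP FD libraries (-2.93-fold, q = 0.00615; log2 fold change -1.55 ± 0.37 SE). All FD libraries were below all fed libraries. The POMC libraries held 19.3, 10.0, 20.6, 46.2 and 18.2 CPM (fed) and 17.7, 35.8, 14.1, 22.9 and 25.5 CPM (FD), all below the AGRP fed libraries. Its exons overlap Gm17133, which had at most 18 reads in a library, beside at least 95 for Man2a1. Man1a and Man2a1 were the 2 genes of the 41 whose AGRP FD libraries were all below the fed ones, where 3.57% of all genes were.

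Man1a and Man1a2 encode Golgi mannosidases of an earlier step. Man1a was at 19.3, 12.9, 8.80, 12.5 and 8.29 TPM in AGRP fed and ran from 0.301 to 3.80 with a median of 1.98 TPM in AGRP FD libraries. The groups did not overlap, but the CPM fit did not pass (-5.23-fold, q = 0.0649), while 5 of 9 other settings, DESeq2 and limma-voom among them, called it (q from 0.00396 to 0.615 over the 9). Man1a2 was at 55.5, 51.2, 64.0, 53.4 and 61.9 TPM in AGRP fed and ran from 45.3 to 64.4 with a median of 58.8 TPM in AGRP FD (+1.19-fold, q = 0.423 in the CPM fit). In POMC neurons Man1a was at 0.567, 0.628, 7.55, 11.3 and 0.804 TPM (fed) and 0, 5.49, 0.845, 1.16 and 1.41 TPM (FD). Man1a2 there was at 41.1, 57.0, 80.3, 85.8 and 50.4 TPM (fed) and 103, 70.0, 85.8, 93.4 and 81.3 TPM (FD). Man1a2 exceeded Man1a in every library. In AGRP neurons the log2 ratio of Man1a2 to Man1a (TPM + 0.1) was 5.08 ± 1.13 in the FD libraries and 2.26 ± 0.59 in the fed libraries, without overlap (exact permutation test, two-sided, p = 0.00433, 0.0173 after Benjamini-Hochberg adjustment over the 8 ratio tests). Man1a2 means were 57.2 TPM in AGRP fed and 56.8 TPM in AGRP FD, so this ratio follows Man1a and is no separate support for its fall. Man1a had 12 to 137 reads in the AGRP FD libraries. In POMC neurons it was 6.43 ± 2.29 in the FD libraries and 4.87 ± 1.59 in the fed libraries (exact permutation test, two-sided, p = 0.19, 0.254 after Benjamini-Hochberg adjustment over the 8 ratio tests).

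Mgat4a and Mgat4b add the same branch. Mgat4a was at 61.4, 57.4, 55.7, 63.7 and 72.1 TPM in AGRP fed and ran from 35.8 to 64.7 with a median of 49.9 TPM in AGRP FD libraries. In the CPM fit, whose scaling TPM does not carry, its change was -1.02-fold (q = 0.957). Mgat4b was at 8.31, 5.48, 26.6, 6.82 and 5.29 TPM in AGRP fed and ran from 1.18 to 9.80 with a median of 3.14 TPM in AGRP FD (-1.91-fold, q = 0.482 in the CPM fit). Neither passed, and Mgat4a was the higher in every library. POMC libraries held 47.7, 28.2, 40.01, 68.3 and 81.8 TPM (fed) and 32.5, 76.7, 79.5, 59.0 and 62.8 TPM (FD) of Mgat4a. They held 7.02, 13.4, 4.26, 17.7 and 6.76 TPM (fed) and 2.39, 21.3, 2.68, 2.47 and 5.78 TPM (FD) of Mgat4b. The Mgat4a to Mgat4b ratio passed in neither cell type (exact permutation test, p = 0.186 in AGRP and 0.127 in POMC neurons). Mgat1, which starts complex glycans, Mgat2 and Mgat5, which add further branches, Mgat3, which adds the bisecting sugar, and Fut8, which adds the core fucose, were not called, with log2 fold changes from -0.70 (Fut8, q = 0.201) to 0.69 (Mgat2, q = 0.284). The summed Golgi level was 285.5 to 346.1 TPM in AGRP fed and 221.3 to 280.2 TPM in AGRP FD libraries, against 267.3 to 362.4 TPM in POMC fed and 321.0 to 393.8 TPM in POMC FD libraries. TPM carries no TMM scaling, and the scaling factors were lower in AGRP FD than in AGRP fed libraries. In the CPM fit the median log2 fold change of the 10 Golgi genes in AGRP neurons was -0.15, with 4 above 0 and 6 below. The difference in summed TPM was not tested.

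**Figure D3:**
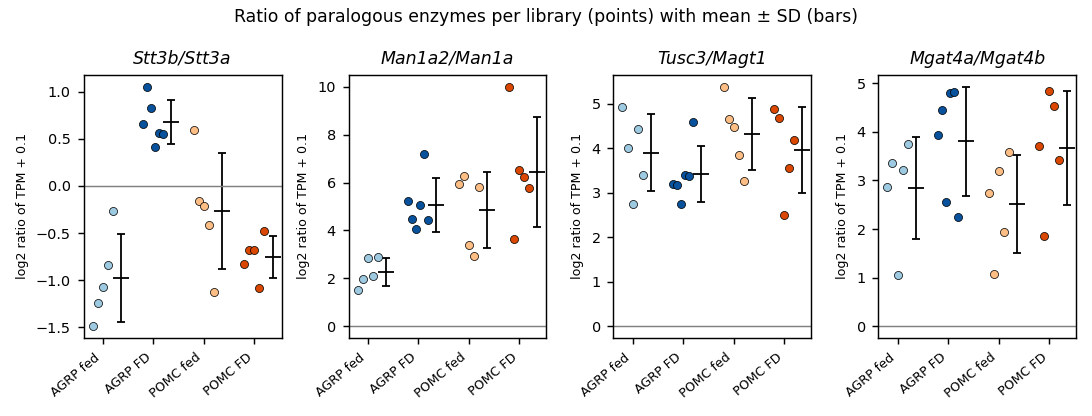
Log2 ratio of TPM + 0.1 between paralogous enzymes in each library (points) with the group mean ± SD (bars), with a line at 0, where the levels are equal. The Stt3b to Stt3a ratio is below 0 in the 5 AGRP fed and above 0 in the 6 AGRP FD libraries.

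The AGRP calls depended on scaling by the gene counts. When libraries were scaled instead by the ERCC spike-in RNA per added volume and sorted cell, none of the 41 genes passed in this comparison, with the same direction for the 8 higher genes (log2 fold change 0.46 to 1.76, q from 0.558) and for Man2a1 (-1.88, q = 0.489). The ERCC scale itself had an SD of 1.55 (log2) among AGRP FD and 1.53 among AGRP fed libraries, and the share of all genes that passed with it is not given here. From the ERCC volumes and cell numbers in the labels, 3 ways of adding spike-ins (spike-in sets) were inferred. The methods of the study name only 1 µl or a volume set by cell number. AGRP FD replicate 2 (1 µl, 50 cells) fits both of these and was placed with cell number. ERCC mix 2, used in AGRP fed replicate 5 and AGRP FD replicate 3, was not separated in the sets. In each set (1 FD against 1 fed library, 2 against 2, and 3 against 2) all 9 called genes moved in their pooled direction. The 8 higher ones moved by 0.63 to 2.53, 0.49 to 2.25 and 0.41 to 1.80 (log2). With the spike-in set as a block in the fit, which rests on the same assignment, each of the 9 genes passed.

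In POMC neurons none of the 41 genes passed the test between FD and fed mice. In this fit 0.182% of all genes were called higher and 0.194% lower. At an unadjusted p under 0.05, 3 of the 41 were higher (Alg11, Dpm1 and Alg10b) and 5 lower (Dpm3, Rpn2, Dad1, Ostc and Prkcsh), where 5.51% of all genes were higher and 6.66% lower at that p. limma-voom called none and DESeq2 called 1, the glucosyltransferase Alg10b (q = 0.0430). The shares of all genes called in those fits are not given here. Alg10b was at 48.9, 44.8, 72.8, 88.3 and 52.4 CPM in POMC fed and 189, 86.4, 103, 79.2 and 119.6 CPM in POMC FD libraries (+1.88-fold, q = 0.112 in the edgeR fit), with overlap. Of the oligosaccharyltransferase genes, 7 of 9 had fitted values below 0, with a median of -0.30 (log2). The log2 change of Stt3b was -0.30 (95% interval from its SE, -0.70 to 0.11), of Rpn1 -0.33 (-0.71 to 0.05) and of Ddost -0.23 (-0.63 to 0.18). These intervals lie below the AGRP changes of the same genes. Spike-ins were added at 1 µl in 3 fed and 3 FD libraries, by cell number in 2 fed and at 10 µl in 2 FD libraries. Within the shared way (3 against 3), the log2 differences were -0.14 for Stt3b, -0.62 for Rpn1, -0.05 for Rpn2, 0.08 for Ddost, -0.09 for Dad1 and -0.09 for Ostc. Those of Stt3a, Tusc3 and Magt1 were 0.006, -0.04 and -0.20.

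**Figure D4:**
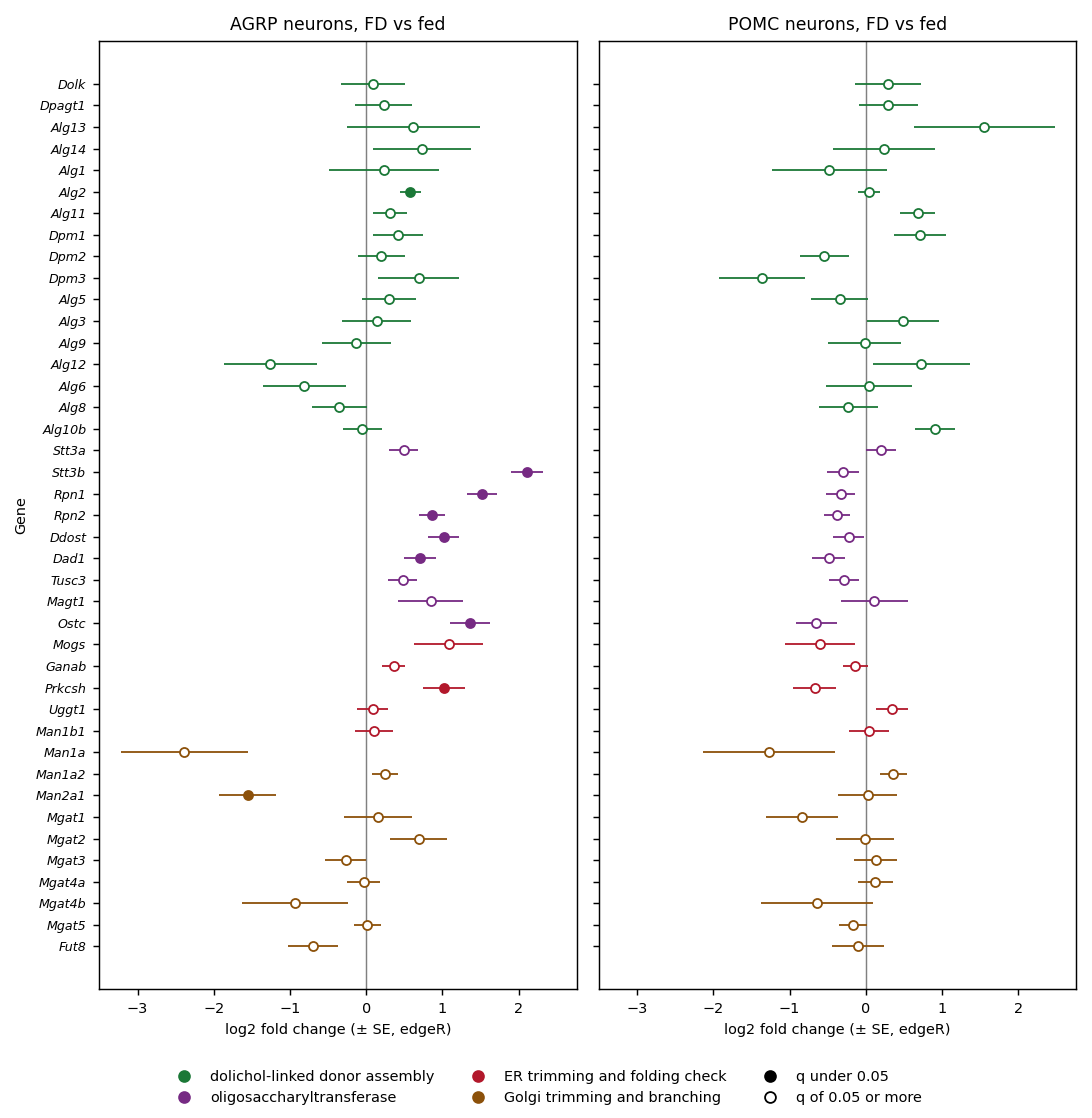
Log2 fold change (FD over fed) with its SE for each of the 41 genes in AGRP (left) and POMC neurons (right), coloured by role, filled where q is under 0.05. In AGRP neurons 8 filled points lie to the right of 0 and 1 to the left, and in POMC neurons no point is filled.

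The difference between the AGRP and the POMC change was tested directly as an interaction. It passed for 7 of the 41 genes, all more positive in AGRP neurons, and for none in the other direction, where 4.08% and 2.63% of all genes passed. The 7 were Stt3b (log2 fold change 2.41 ± 0.29 SE, q = 2.74e-06), Ostc (log2 fold change 2.01 ± 0.38 SE, q = 0.00105), Rpn1 (log2 fold change 1.85 ± 0.27 SE, q = 5.48e-05), Prkcsh (log2 fold change 1.69 ± 0.40 SE, q = 0.00818), Ddost (log2 fold change 1.25 ± 0.29 SE, q = 0.00744), Rpn2 (log2 fold change 1.24 ± 0.24 SE, q = 0.00144) and Dad1 (log2 fold change 1.20 ± 0.30 SE, q = 0.0126). Alg2 did not pass (log2 fold change 0.54 ± 0.20 SE, q = 0.107), and Man2a1 did not either (log2 fold change -1.57 ± 0.54 SE, q = 0.0764), although it did without AGRP FD replicate 2 (q = 0.0246) or POMC fed replicate 4 (q = 0.0182) and in DESeq2 (q = 0.0405) and limma-voom (q = 0.0211). With ERCC scaling the median of all genes moved to 1.04 (log2) in this comparison, and the 7 genes were at 2.20 to 3.23, above that median, but none passed. This comparison shares the AGRP libraries with the one above and is no separate support for it. The POMC fed and FD libraries differed in how spike-ins were added, as given above. With the spike-in set as a block, each of the 7 genes passed.

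Between the cell types in fed mice, 1 of the 41 genes was higher in AGRP and 1 in POMC neurons, beside 3.33% and 4.24% of all genes. Man2a1 was higher in AGRP neurons (+3.34-fold, q = 0.00413; log2 fold change 1.74 ± 0.40 SE), with means of 76.2 ± 8.24 and 22.9 ± 13.7 CPM (SD, n = 5 each). Fut8, the core fucosyltransferase (chr12:77238104-77476338, plus strand), was lower (-2.44-fold, q = 0.0169; log2 fold change -1.29 ± 0.35 SE), at 19.5, 7.43, 16.7, 19.9 and 16.2 CPM in AGRP and 30.2, 31.5, 53.3, 45.7 and 34.3 CPM in POMC libraries. Those Fut8 ranges did not overlap, but the call was lost without AGRP fed replicate 2 (q = 0.0540) or POMC fed replicate 3 (q = 0.0512). Stt3b did not pass (-1.56-fold, q = 0.0541), but did without AGRP fed replicate 5 (q = 0.0108), POMC fed replicate 3 (q = 0.0394) or POMC fed replicate 5 (q = 0.0218). The counts rest on few genes, and limma-voom, DESeq2 and the fit with spike-in sets as a block each called 4 of the 41. The shares of all genes called in those 3 fits are not given here. With ERCC scaling neither Man2a1 (q = 0.379) nor Fut8 (q = 1) passed.

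In FD mice the cell types differed in 10 of the 41 genes. The 8 higher in AGRP neurons were the same 8 that rose there with food deprivation, and Fut8 and the glucosyltransferase Alg6 were lower, beside 9.28% and 9.27% of all genes. Among the 8, the largest differences were those of Ostc (+3.55-fold, q = 7.98e-06; log2 fold change 1.83 ± 0.27 SE), Stt3b (+3.40-fold, q = 1.60e-07; log2 fold change 1.76 ± 0.21 SE) and Rpn1 (+2.68-fold, q = 1.62e-06; log2 fold change 1.42 ± 0.19 SE). Ddost (log2 fold change 1.22 ± 0.20 SE, q = 4.50e-05), Dad1 (log2 fold change 1.09 ± 0.21 SE, q = 2.63e-04), Prkcsh (log2 fold change 1.07 ± 0.28 SE, q = 0.00599), Alg2 (log2 fold change 0.98 ± 0.14 SE, q = 4.93e-06) and Rpn2 (log2 fold change 0.79 ± 0.17 SE, q = 9.25e-04) followed. Fut8 ran from 5.08 to 15.5 with a median of 9.54 CPM in AGRP FD libraries and was at 40.5, 34.8, 23.7, 23.1 and 59.6 CPM in POMC FD libraries (-3.69-fold, q = 9.33e-05; log2 fold change -1.88 ± 0.33 SE), without overlap. Alg6 (chr4:99715665-99763460, plus strand) ran from 0.173 to 11.5 with a median of 5.80 CPM in AGRP FD and was at 18.9, 14.6, 13.6, 31.0 and 28.4 CPM in POMC FD libraries (-3.43-fold, q = 0.0207; log2 fold change -1.78 ± 0.55 SE), a call lost without POMC FD replicate 4 (q = 0.0561), with the compared groups alone (q = 0.0559) and with the spike-in set as a block (q = 0.0837). These libraries are also those of the comparisons above. With ERCC scaling, which put the median of all genes at 1.10 (log2), Stt3b, Rpn1, Ddost and Ostc passed, and Fut8 and Alg6 did not (q = 0.719 and 0.691).

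All 41 genes had reads in each group, and 26 to 29 of them had a group mean over 20 TPM, depending on the group. Alg2 had the highest mean of the 41 in every group, 931 ± 182 TPM in AGRP fed, 1172 ± 241 in AGRP FD, 610.4 ± 119.5 in POMC fed and 673 ± 63.0 in POMC FD neurons (SD). The next gene was Tusc3 in AGRP fed (185 ± 30.9 TPM) and POMC fed (219.9 ± 27.3 TPM), Ostc in AGRP FD (347 ± 62.6 TPM) and Alg11 in POMC FD neurons (201 ± 47.2 TPM). In AGRP fed neurons Tusc3, Rpn2 (181 ± 18.9 TPM) and Ostc (162 ± 42.3 TPM) were within an SD of each other. The lowest mean was that of Alg13 in both fed groups (4.85 ± 6.45 TPM in AGRP and 1.11 ± 0.725 TPM in POMC neurons) and that of Man1a in both FD groups (1.97 ± 1.22 and 1.78 ± 2.14 TPM). The deposited Alg2 model lacks 4766 bases that vM21 has at its lower end, and the Mgat4b model lacks 14445.

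**Figure D5:**
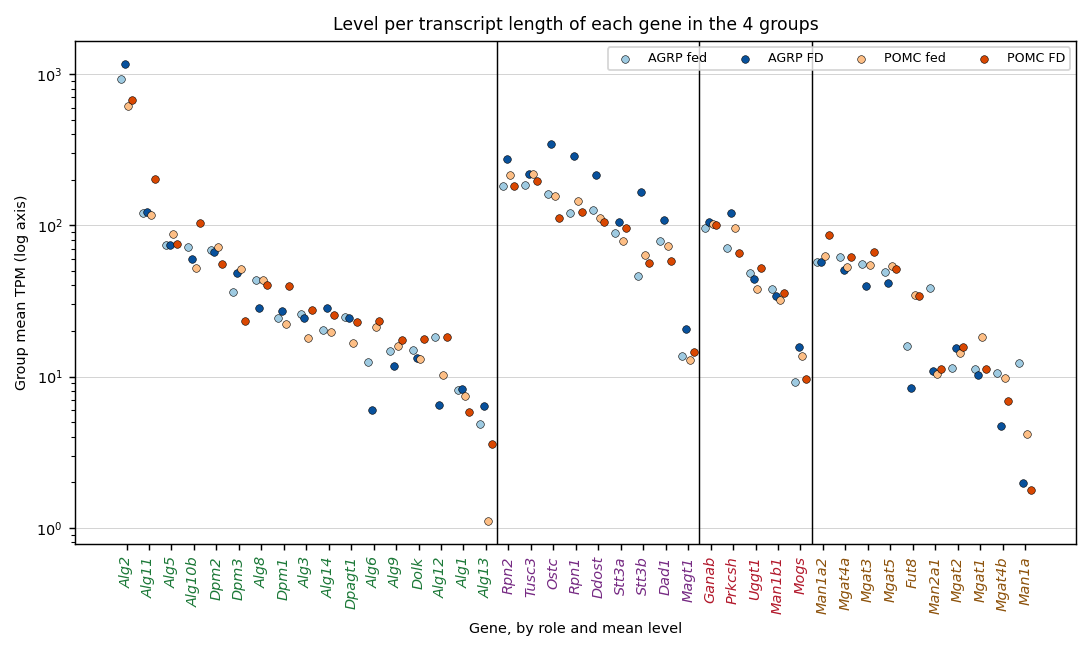
Group mean TPM of each of the 41 genes on a log axis, by role and then by mean level, with a point for each of the 4 groups. Alg2 is highest in all groups, and the AGRP FD points of Ostc, Rpn1, Ddost and Stt3b lie above the points of the other groups.

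Other genes of the route were read from lists, and their calls stand beside 5.87% of all genes called higher and 4.43% lower in AGRP FD against fed neurons. Of 23 genes that supply dolichol and sugar donors, 1 was called in AGRP FD against fed neurons, Gfpt1, the entry enzyme of the hexosamine pathway (+1.82-fold, q = 7.28e-04), at 281 ± 46.9 CPM in fed and 513 ± 84.8 CPM in FD mice. Of 3 further oligosaccharyltransferase subunits (Tmem258, Krtcap2 and Ost4) none was called, with fitted log2 values of 0.69 to 0.76. Of 16 other N-glycan enzymes 2 were called, both higher, the branching enzyme homologue Mgat4c (+4.40-fold, q = 0.00103) and Edem3, a mannosidase that marks misfolded glycoproteins for disposal (+1.63-fold, q = 0.00612). The other 2 ER and Golgi glycan routes gave 1 call each, Pgap1 of 21 tested genes of GPI anchor synthesis, which was lower (-1.65-fold, q = 3.75e-04), and B3galnt2 of 10 genes of O-mannose glycans, which was higher (+2.19-fold, q = 0.0173). Of 15 ER folding enzymes and chaperones 13 were higher, led by Hspa5 (+3.27-fold, q = 1.89e-08), Manf (+2.99-fold, q = 0.00131), Hyou1 (+2.81-fold, q = 1.57e-07) and P4hb (+2.66-fold, q = 1.58e-06), with a median log2 change of 1.14. In POMC neurons none of the genes of these lists was called.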

How the data were processed

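The authors removed adapters with cutadapt 1.7.1, filtered abundant sequences with Bowtie2 2.1.0, aligned reads to mm10 with STAR 2.4.0i and counted them per Gencode VM4 gene with HTSeq 0.6.1p1, without strand. They deposited counts, and TPM values made from those counts by exon length. RNA was amplified and carried no molecular identifiers, so that duplicated fragments count as reads. ERCC rows (92) and HTSeq summary rows (5) were left out of library sizes. Reads outside genes were 25.6 to 55.3% of the reads counted.

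Counts were tested with edgeR 4.0.16 (quasi-likelihood test, TMM scaling, R 4.3.3) in 1 fit of 21 libraries and 4 groups, for genes over 1 CPM in at least 3 libraries, with Benjamini-Hochberg adjustment over all genes tested. Each library was 1 mouse. limma 3.58.1, DESeq2 1.42.0, other scalings, filters, blocks, covariates and leaving out each library were alternatives. TPM was used for levels between genes, and TPM + 0.1 for ratios (exact permutation tests). Scripts were tested on simulated data. The 41 genes, the other lists and the tests were chosen with earlier results of these data known, and the CCACG and CCAAT search, the values within spike-in sets and the gene models compared with vM21 were added after results were seen. All 41 genes are named. Every library's value (for the 6 AGRP FD libraries, the lowest, median and highest) is given for genes past the DEG criteria in AGRP neurons or passing the interaction, for the paralogous pairs, and, added after their values were seen, for Alg2, Fut8, Alg6 and Alg10b. Of the other lists, called genes are named, at most 4 per list and direction.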

Additional observations from a re-analysis of the deposited data

Results flagged for a closer look

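Single libraries stood apart from the rest of their group for 12 of 164 gene and group combinations among the 41 genes, by the gap to the nearest library against the range of the group (Dixon's criterion). Chance flags about 1 in 20, which is 8.2 here. In normalized CPM, 3 of them concerned AGRP fed libraries. Stt3b was at 83.3 in AGRP fed replicate 5, beside 52.6 in the next library and still below every AGRP FD library. Alg13 (9.68, next 1.97) and Mgat4b (18.1, next 5.49) were both high in AGRP fed replicate 3. Man1b1 was at 76.3 in AGRP FD replicate 2 (next 45.3) and Mgat3 at 95.7 in AGRP FD replicate 1 (next 62.6).

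In POMC fed libraries Alg1 was low in replicate 3 (1.38, next 4.37) and Ganab in replicate 1 (103, next 130). In POMC FD libraries Alg11 (423, next 288) and Mgat3 (177, next 79.9) were high in replicate 1, Man1a (9.74, next 2.54) and Mgat4b (15.2, next 4.21) in replicate 2, and Alg13 in replicate 5 (5.95, next 1.92). Alg13, Alg1, Man1a and Mgat4b are among the scarce genes, with 35 to 319 reads behind the values given here.

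The change with food deprivation differed between AGRP and POMC neurons, by the interaction term of the edgeR fit, for Stt3b (difference of log2 fold changes 2.41), Ostc (2.01), Rpn1 (1.85), Prkcsh (1.69), Ddost (1.25), Rpn2 (1.24) and Dad1 (1.20).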

How the results depend on the processing

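Scaling by ERCC counts per spike-in volume and cell moved most. It called 0 of 41 genes in AGRP FD against fed (9 with TMM), 0 past the DEG criteria (6), 0 in AGRP against POMC fed neurons (2), 4 in FD mice (10) and 0 in the interaction (7). The share of all genes called with this scaling is not given here, so these counts cannot be read as particular to the 41 genes. The median log2 value of the 41 genes became -1.16 in POMC FD against fed, 1.24 in AGRP against POMC FD neurons and 1.29 in the interaction, where the medians of all genes became -1.11, 1.10 and 1.04. Alg10b reversed in sign to -0.030, 0.65 and 0.20 in these comparisons, but stayed on the same side of the median of all genes. The POMC fed and FD libraries differed in how spike-ins were added, and the part of this in the shift was not tested. DESeq2 called 1 gene in POMC neurons (0 with edgeR), and DESeq2, limma-voom and the spike-in set block called 4 each in AGRP against POMC fed neurons (2). With RLE scaling no call of a named gene changed, and with no count filter only that of Man1a in AGRP neurons.

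Leaving out each library gave 7 to 9 calls in AGRP FD against fed, 4 to 6 past the DEG criteria, 0 in POMC neurons, 1 to 3 and 10 to 12 between the cell types in fed and FD mice, and 7 to 8 in the interaction. For these fits and the other settings of this section, the shares of all genes called are not given here.

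Replicate numbers name different mice, and same-numbered libraries did not deviate together (r from -0.16 to 0.055). The replicate block gave 10 calls in AGRP FD against fed, adding Man1a (q = 0.0426), and changed no other call of a named gene. Groups compared alone could not be fitted for the interaction. Depth limits the scarce genes Alg13, Man1a, Mgat4b and Alg1.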

Other observations

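Other genes of the route also differed between AGRP and POMC neurons of FD mice, chosen here after their values were seen. Of the 42 other N-glycan and donor genes, 5 were higher in AGRP neurons and 1 was lower, beside 9.28% and 9.27% of all genes. The higher ones were Mgat4c (log2 fold change 2.45), Man1c1, a Golgi mannosidase (1.89, q = 0.00247), Pgm3 (1.04, q = 0.0315) and Gfpt1 (0.96), both of the hexosamine pathway, and Edem3 (0.94). The lower one was Slc35a3, which carries UDP-N-acetylglucosamine into the Golgi (-0.72, q = 0.0212). Of the 15 ER folding genes 14 were higher.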
